A study of Mus musculus with 12 samples.

Results

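The cells described here are those that the authors' deposited cell table annotates as chondrocytes, the cells that build and keep cartilage. They were found by that annotation, and each cell's barcode and library were matched to the count matrices of 2 wells of sorted fibroblasts from mouse joints. The annotation held 96 of 3551 annotated cells in these wells and of 8042 in the series, and all 96 matched a barcode. The same wells held 127 cells annotated as osteoblasts and 3328 cells under 5 fibroblast annotations (Mmp3+, Il6+, Pi16+, Lining and Cd200+). Because the annotation is taken to rest on the expression of these same cells, levels in these cells beside those in other annotations are given as a description, with no test.

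All mice were of the strain R5 x R26tdTomato with the genotype Il5 wt/Cre; R26 tdTom/tdTom and were 8 to 10 weeks old, so every group carried the Cre under Il5, a gene of type 2 lymphocytes, and the tdTomato reporter. Ankle and wrist joints came from healthy mice, from mice with serum transfer arthritis (STA, a joint inflammation set off by transferred serum) and from mice with STA given Il23mc, minicircle DNA for the cytokine IL-23. Viable cells without CD45 and GR-1 were sorted. Experiment 1 put healthy, STA and STA + Il23mc cells in 1 well with 1 hashtag antibody each, and experiment 2 put healthy, mild STA and severe STA cells in another. The hashtag is therefore the replicate: 2 healthy, 3 STA (mild and severe counted as STA) and 1 STA + Il23mc. The labels speak of 4 animals per well and of hashtags that tell animals apart, yet each well has 3 hashtags. How many animals carried each is not given, so the p-values below measure the spread between hashtags, and that spread may be partly technical. Experiment 1 gave 23 healthy, 13 STA and 15 STA + Il23mc cells of the annotation, and experiment 2 gave 26 healthy, 11 mild STA and 8 severe STA cells.

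Chondrocytes lay down a gel of aggrecan on a net of collagens II, IX and XI under the control of the transcription factor SOX9. The non-collagen proteins COMP, chondroadherin, matrilins, CILP and the small leucine-rich proteoglycans link that net. Superficial articular chondrocytes make lubricin, and chondrocytes of the growth plate enlarge and turn on collagen X. Tendon, ligament and fibrocartilage share several of the linking proteins with cartilage, while tenomodulin and scleraxis are known as tendon and ligament genes.

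The 96 cells held 1783 to 27796 unique molecular identifiers (UMIs, counted transcripts), with a median of 10667.5 and none above 3 times that median. Summed per hashtag, the counts came to 91022 to 285647 UMIs. Levels below are UMIs of a gene per 1000000 UMIs of that annotation and hashtag (CPM), and values over hashtags stand in the order healthy in experiments 1 and 2, STA in experiment 1, mild and severe STA in experiment 2, and STA + Il23mc in experiment 1. The 2 wells shared 4 barcodes, of which 0 were annotated. The Y-linked Ddx3y was at 0.17 CPM in the fibroblasts of the mild STA hashtag and at 28.5 to 59 CPM in the other 5, so the sexes were not spread evenly over the hashtags. Immune markers were low: Ptprc and the 5 other ILC or T cell markers were at 0 UMIs, and the 6 macrophage markers summed to at most 7.04 CPM in any hashtag. The 5 endothelial markers summed to at most 11.4 CPM.

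Of the 3 genes given as marks of these cells, Acan and Sox9 were higher by the mean in annotated osteoblasts, and Cytl1 was highest in annotated chondrocytes. Acan, which encodes aggrecan (chromosome 7, 79053483 to 79115099, mm10), had a UMI in 30 of 96 cells and stood at 274, 182, 496, 18.1, 264 and 42.2 CPM. Its mean over hashtags was 213 ± 176 CPM (SD, n = 6), against 108 CPM in all fibroblasts together and 1064 CPM in annotated osteoblasts, which were higher in all 6 hashtags. Sox9, the master transcription factor of cartilage (chromosome 11, 112782224 to 112787760), had a UMI in 51 cells and a mean of 436 ± 289 CPM. Annotated osteoblasts had 549 CPM of Sox9 and fibroblasts 155 CPM.

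Cytl1, a small secreted protein known from cartilage (chromosome 5, 37735519 to 37739820), was the most selective of the 3. It stood at 668, 760, 0, 1002, 549 and 0 CPM, against means of 27.6 CPM in annotated osteoblasts and 9.11 CPM in fibroblasts. Only 16 cells had a UMI of it, and 166 of its 550 UMIs were in 1 mild STA cell. The 2 hashtags at 0 were those of STA and of STA + Il23mc in experiment 1. Of the 96 cells, 35 had a UMI of none of the 3 genes, 34 of 1, 18 of 2 and 9 of all 3.

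With each cell thinned to 1500 UMIs, which left out no cell, Acan was seen in 15.6% of the annotated chondrocytes (exact 95% interval 9.02 to 24.5%). It was seen in 38.6% of annotated osteoblasts and in 0.633% of Lining fibroblasts of the joint lining, which are not known for aggrecan, and unthinned shares were 31.2, 66.1 and 2.53%. It was also seen in 9.5% of all fibroblasts and in 10.1% of Cd200+ fibroblasts (5.15 to 17.3%), whose interval overlaps with that of annotated chondrocytes. Median UMIs per cell over hashtags were 7224 to 15797 in annotated chondrocytes and 13415 to 24131 in Lining fibroblasts. Sox9 was seen in 27.1% of annotated chondrocytes (18.5 to 37.1%) and 25.2% of annotated osteoblasts, and also in 15.8% of Lining fibroblasts. Cytl1 was seen in 11.5% (5.86 to 19.6%), 2.36% and 0% of these 3 groups. The intervals cover counting error only.

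The wider marker lists went partly against the name. Of 25 chondrocyte markers in the files, 23 were higher in annotated chondrocytes than in all fibroblasts together, but 17 had their highest mean in annotated osteoblasts and 6 in annotated chondrocytes. Matn1, a matrilin of hyaline cartilage, was at 0 UMIs, as was Col10a1 of hypertrophic chondrocytes, and Ihh of the growth plate had 1 UMI. The 6 markers that were highest in annotated chondrocytes were Comp, Chad, Cilp, Cilp2, Cytl1 and Sox6. All 6 tendon or ligament markers (Scx, Tnmd, Mkx, Fmod, Thbs4 and Kera) were also highest there. The name is therefore kept below only as the authors' annotation.

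**Figure D1:**
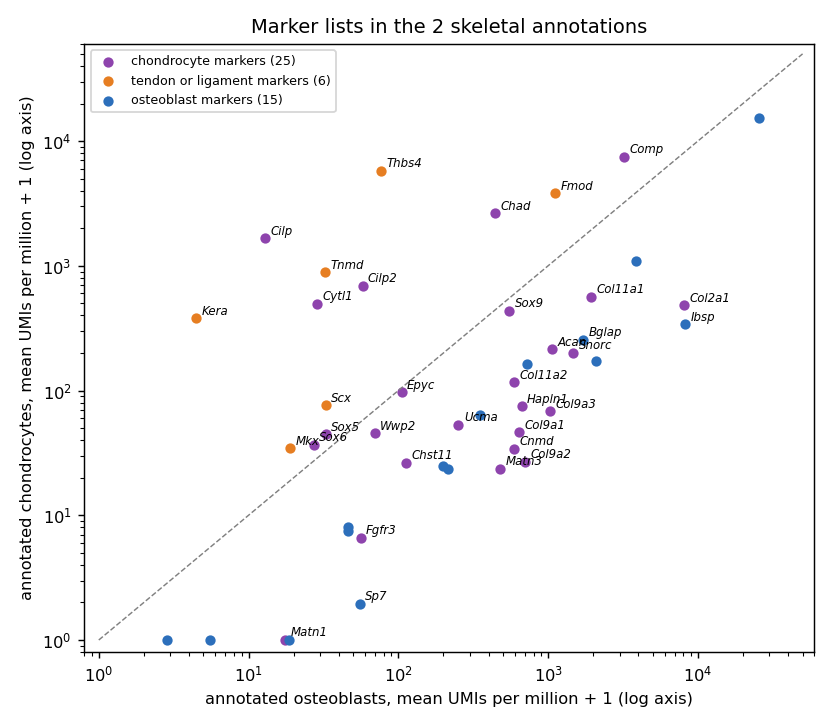
Mean level of each gene of 3 marker lists over 6 hashtags in annotated chondrocytes (vertical) and annotated osteoblasts (horizontal), both as CPM plus 1 on log axes; the dashed line marks equal levels. Cartilage collagens, Acan, Hapln1 and Matn3 lie on the osteoblast side, and the tendon or ligament markers with Chad, Comp, Cilp, Cilp2 and Cytl1 lie on the chondrocyte side.

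The collagens of hyaline cartilage were the clearest case. Col2a1, which encodes the collagen II chain (chromosome 15, 97975602 to 98004695), stood at 2171, 648, 17.7, 18.1, 33 and 0 CPM in annotated chondrocytes. In annotated osteoblasts it stood at 3709, 20295, 2293, 10140, 11859 and 375 CPM, higher in every hashtag. Its UMIs sat in few cells of either annotation. In annotated chondrocytes 3 cells with at least 10 UMIs, all healthy, held 558 of 574 UMIs, and 1 cell of the healthy hashtag of experiment 1 held 380. In annotated osteoblasts 11 of 127 cells held 18204 of 18222 UMIs, and 3 of those 11 also had at least 10 UMIs of Ibsp, the bone sialoprotein gene. No cell was moved between annotations here.

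The partners of collagen II had the same order between the annotations. Col9a1, Col9a2 and Col9a3, the chains of collagen IX, had means of 45.2, 25.9 and 67.4 CPM in annotated chondrocytes and of 642, 697 and 1023 CPM in annotated osteoblasts. Col11a1, a collagen XI chain also made outside cartilage, had a UMI in 62 of 96 cells and means of 562 and 1923 CPM. Hapln1, the link protein that ties aggrecan to hyaluronan, had means of 73.7 and 666 CPM. Matn3, another matrilin, had 22.7 and 475 CPM, and 17 of its 24 UMIs in annotated chondrocytes were in 1 cell. Of the 8 genes in the cartilage collagen list, 0 were higher in annotated chondrocytes than in annotated osteoblasts by the mean.

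Chad, Comp, Cilp, Cilp2 and Prelp had the reverse order, while over the whole list of aggrecan network and matrix proteins 10 of 22 genes were above annotated osteoblasts by the mean. Chad encodes chondroadherin, a leucine-rich protein that binds collagen (chromosome 11, 94565047 to 94569127). It stood at 2142, 5300, 1659, 1847, 4647 and 218 CPM in annotated chondrocytes, and the lowest value was that of STA + Il23mc. Its means were 2636 CPM there, 440 CPM in annotated osteoblasts and 54.3 CPM in fibroblasts, and it was higher than both in all 6 hashtags. After thinning, 62.5% of annotated chondrocytes had a Chad UMI, against 24.4% of annotated osteoblasts, 40.4% of Cd200+ fibroblasts and 0% of 158 Lining fibroblasts, which allows up to 2.31% by the exact interval.

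Comp, the cartilage oligomeric matrix protein, was in 92 of 96 cells at a mean of 7517 ± 2857 CPM. Its mean was 3215 CPM in annotated osteoblasts, 1287 CPM in all fibroblasts and 5171 CPM in the Cd200+ fibroblasts. Cilp and Cilp2, the cartilage intermediate layer proteins, had means of 1658 and 691 CPM, against 11.8 and 56.7 CPM in annotated osteoblasts. Prelp, a leucine-rich repeat protein of connective tissue matrix, stood at 1394 ± 621 CPM, against 312 CPM in annotated osteoblasts and 273 CPM in fibroblasts. All 4 genes were above both other groups in all 6 hashtags, and no cell held more than 11.7% of the UMIs of any of them.

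Ranked by the log2 ratio of the mean CPM plus 10 over that in all fibroblasts, the leading gene was Angptl7 at 5.43, a secreted angiopoietin-like protein (chromosome 4, 148495183 to 148500460). It stood at 1639, 1820, 573, 1769, 802 and 2337 CPM and had a UMI in 62 of 96 cells. Annotated osteoblasts had a mean of 1.42 CPM and fibroblasts 24.9 CPM of it, so it was high in every hashtag of the annotation. Coch, which encodes the extracellular protein cochlin, followed at 5.39, but only 13 cells had a UMI and the severe STA hashtag had none. After Chad and Cytl1 came Clu, the extracellular chaperone clusterin, at 514 to 8679 CPM over hashtags, with a log2 ratio of 4.64. Wif1, a secreted inhibitor of Wnt ligands, had a log2 ratio of 3.86 and a UMI in 35 cells. Npy, the neuropeptide Y gene, had one of 3.65 and a UMI in 13 cells.

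Several of the 15 leading genes rested on few cells. Of 253 UMIs of Bglap, the osteocalcin gene, 205 were in 1 mild STA cell, which held 454 UMIs of Ibsp, Bglap and Bglap2 together. Snorc, a cartilage proteoglycan, had a UMI in 7 cells, and Col11a2 in 15. Of the 96 cells, 10 had at least 5 UMIs of those 3 bone genes together; whether any was a doublet was not tested. Fmod, Kera and Tnmd completed the 15.

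**Figure D2:**
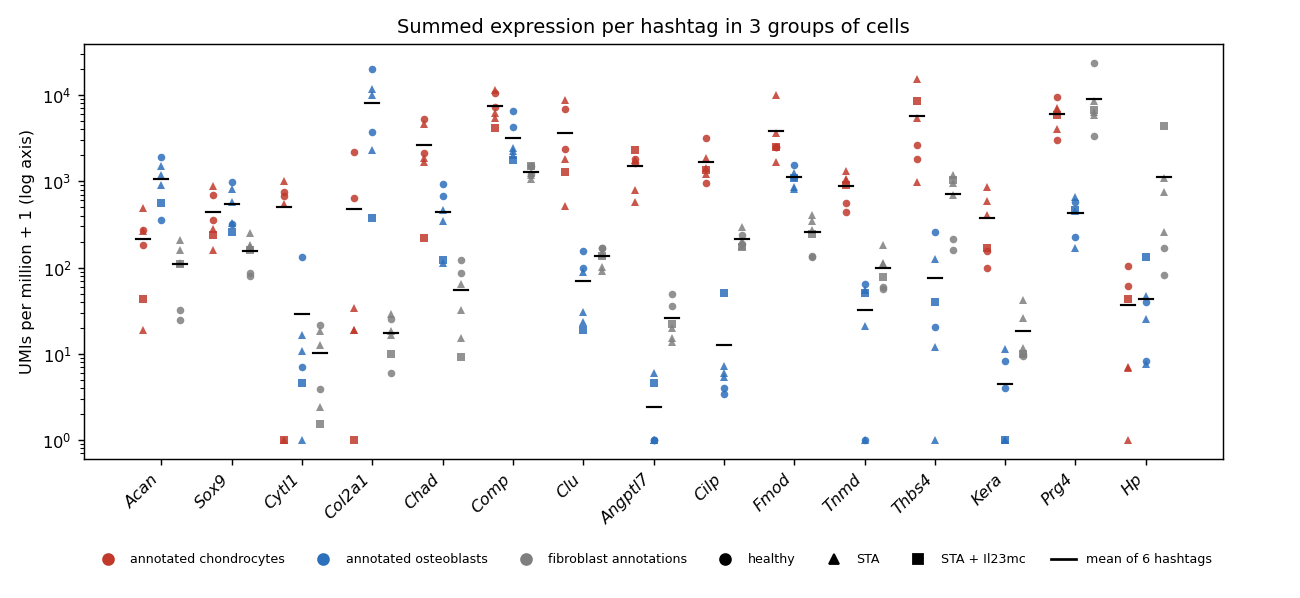
Level of 15 genes (horizontal) per hashtag as CPM plus 1 on a log axis, in annotated chondrocytes, annotated osteoblasts and all fibroblast annotations; the shape gives the condition and the bar the mean of 6 hashtags. Angptl7, Chad, Clu, Cilp, Tnmd and Kera were highest in annotated chondrocytes in all 6 hashtags, while Acan and Col2a1 were highest in annotated osteoblasts by the mean.

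Against annotated osteoblasts the ranking was led by Angptl7 at a log2 ratio of 7.04, Cilp at 6.25, Coch at 6.19 and Thbs4 at 6.09. The other 6 of the 10 were Myoc, Clu, Kera, Lcn2, Tnmd and Tnxb. Myoc, which encodes the secreted protein myocilin, stood at 1162 CPM, against 11.2 CPM in annotated osteoblasts, and was highest in Pi16+ fibroblasts. Lcn2, the iron-binding lipocalin-2, reached 2964 CPM in STA + Il23mc and 0 to 139 CPM in the other 5 hashtags. Of 15 osteoblast markers, 0 were above annotated osteoblasts by the mean, but 11 were above all fibroblasts. Ibsp stood at 788, 483, 11.8, 634, 54.9 and 56.3 CPM, with a UMI in 9 cells and a mean of 338 CPM, against 8182 CPM in annotated osteoblasts and 36.4 CPM in fibroblasts. Alpl, the alkaline phosphatase of bone, had means of 162, 727 and 14.5 CPM in these 3 groups. Sp7, a transcription factor of osteoblasts, had 1 UMI, and Runx2, another, had a mean of 22.6 CPM against 215 CPM in annotated osteoblasts. Dmp1, Phex and Mepe were at 0 UMIs.

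Of the 96 cells, 85 had a UMI of Thbs4, 82 of Fmod, 53 of Tnmd, 29 of Kera, 28 of Scx and 21 of Mkx. After thinning, Fmod was seen in 77.1% of annotated chondrocytes (67.4 to 85%), 58.3% of annotated osteoblasts and 61.5% of Cd200+ fibroblasts (51.7 to 70.6%), and Tnmd in 37.5% (27.8 to 48%), 3.94% and 28.4% (20.2 to 37.9%). The intervals of annotated chondrocytes and Cd200+ fibroblasts overlap for both genes. Thbs4 was seen in 71.9% of annotated chondrocytes, against 7.09% of annotated osteoblasts and 12.8% of Cd200+ fibroblasts. Summed, the 6 markers made up 4504 to 27544 CPM in annotated chondrocytes, 856 to 1719 CPM in annotated osteoblasts and 365 to 1843 CPM in all fibroblasts together, so the first range overlaps with neither of the others. The highest sums among the fibroblast annotations were 1223 to 2841 CPM in Cd200+ and 1152 to 3129 CPM in Mmp3+ cells. Tnmd, which encodes the membrane protein tenomodulin (chromosome X, 133850980 to 133865577), stood at 440, 557, 1045, 1310, 1055 and 901 CPM with a UMI in 53 cells. Thbs4, the matrix protein thrombospondin-4 (chromosome 13, 92751590 to 92794818), stood at 1811, 2650, 5461, 15188, 978 and 8631 CPM, and 1 cell held 18.4% of its UMIs. Fmod, the collagen-binding proteoglycan fibromodulin (chromosome 1, 134037254 to 134048277), stood at 2531, 2500, 3655, 10032, 1692 and 2506 CPM. Kera, the related proteoglycan keratocan (chromosome 10, 97606879 to 97613692), stood at 97.1, 154, 407, 851, 593 and 169 CPM, against at most 40.9 CPM in the fibroblasts of any hashtag.

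Tnmd, Fmod, Thbs4 and Kera varied together from cell to cell, and their promoter sequences are shown for that reason. The letters are from RefSeq on GRCm38.p6 (the assembly of mm10), run 5′ to 3′ on the gene's strand from 250 bases before to 50 after RefSeq's start, and capitals mark CANNTG, the E-box letters that basic helix-loop-helix factors such as scleraxis are known to bind.
Tnmd: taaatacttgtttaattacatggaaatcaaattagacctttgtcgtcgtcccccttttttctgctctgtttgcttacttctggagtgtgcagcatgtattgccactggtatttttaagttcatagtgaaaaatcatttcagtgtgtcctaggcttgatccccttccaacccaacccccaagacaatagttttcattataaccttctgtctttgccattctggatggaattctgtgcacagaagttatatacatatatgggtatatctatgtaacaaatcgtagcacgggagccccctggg
Fmod: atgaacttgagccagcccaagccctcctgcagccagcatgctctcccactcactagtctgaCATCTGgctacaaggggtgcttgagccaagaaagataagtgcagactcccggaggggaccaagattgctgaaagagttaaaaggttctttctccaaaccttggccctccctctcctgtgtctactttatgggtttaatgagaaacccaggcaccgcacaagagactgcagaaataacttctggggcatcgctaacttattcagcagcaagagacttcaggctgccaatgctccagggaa
Thbs4: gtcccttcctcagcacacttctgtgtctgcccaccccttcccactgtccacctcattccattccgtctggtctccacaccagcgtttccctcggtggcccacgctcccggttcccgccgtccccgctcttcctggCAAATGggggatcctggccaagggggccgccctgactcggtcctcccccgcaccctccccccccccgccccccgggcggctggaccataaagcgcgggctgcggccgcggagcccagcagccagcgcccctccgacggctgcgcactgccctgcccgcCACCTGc
Kera: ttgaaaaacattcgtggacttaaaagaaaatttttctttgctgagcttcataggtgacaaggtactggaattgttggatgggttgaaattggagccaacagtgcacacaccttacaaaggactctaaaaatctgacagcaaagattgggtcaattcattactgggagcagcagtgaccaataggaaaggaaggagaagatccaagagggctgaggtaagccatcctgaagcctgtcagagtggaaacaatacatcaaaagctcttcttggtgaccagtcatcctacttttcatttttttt
The windows are chrX:133850758-133851057 on the plus strand, chr1:134037004-134037303 on the plus strand, chr13:92794769-92795068 on the minus strand and chr10:97606955-97607254 on the plus strand. CANNTG reads the same on both strands as a pattern. It occurred 0 times in the Tnmd window, 1 time in Fmod, 2 times in Thbs4 and 0 times in Kera, and 72.3% of 32851 promoter windows of this length held it at least 1 time. Of the 6 markers, 4 were in the promoter table.

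Within the annotation, Tnmd per UMI correlated over the 96 cells with Fmod (Spearman's rho 0.70), Kera (0.69), Thbs4 (0.67) and Col1a1, a chain of collagen I (0.60). Acan correlated with Hapln1 (0.55), Chad with Cilp2 (0.51), and Angptl7 with Dcn, the decorin gene (0.57). Tnmd and Cytl1 went in opposite directions (-0.38), as did Hapln1 and Thbs4 (-0.42) and Acan and Dcn (-0.38). The cells share 2 wells and 6 hashtags and differ in depth, so these values describe and test nothing. Within experiment 1 (51 cells) and experiment 2 (45 cells), Tnmd with Kera gave 0.55 and 0.77, Tnmd with Sox9 gave -0.32 and -0.36, and Acan with Hapln1 gave 0.48 and 0.67.

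Counted as cells, 36 had a UMI of Acan, Sox9 or Cytl1 and none of Tnmd, 28 had Tnmd and none of the 3, 25 had both and 7 had neither. After thinning to 1500 UMIs the numbers were 31, 28, 8 and 29. Cells of both kinds were present in most hashtags, but not evenly. With all UMIs, the healthy hashtag of experiment 1 had 12 cells with a marker only and 7 with Tnmd only, and the mild STA hashtag had 1 and 6. The severe STA hashtag had 4 and 0.

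**Figure D3:**
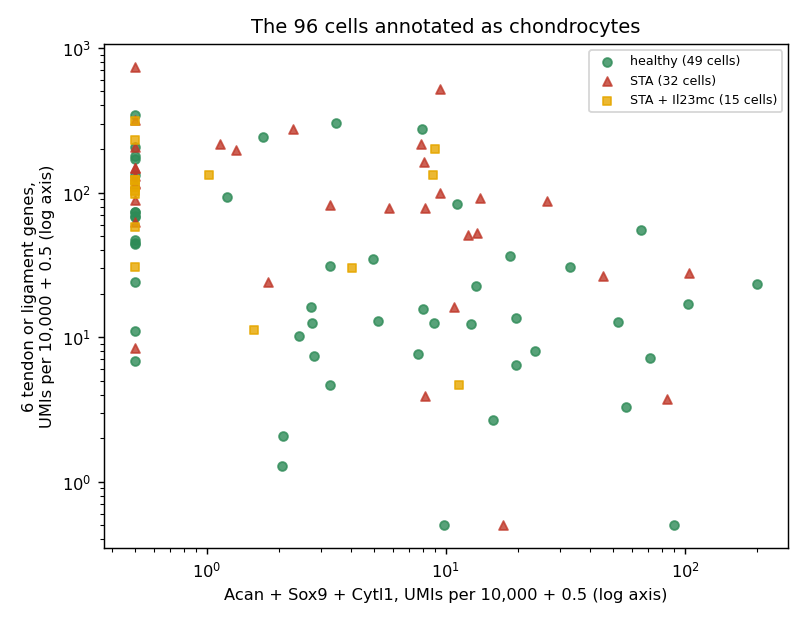
Each point is 1 of the 96 cells, with the summed UMIs of Acan, Sox9 and Cytl1 (horizontal) and of the 6 tendon or ligament markers (vertical), both per 10000 UMIs plus 0.5 on log axes; colour and shape give the condition. The 35 cells with none of the 3 genes stand at the left edge, and cells with tendon or ligament genes stand both there and to the right of it.

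Lubricin, the product of Prg4 and the lubricant of the joint surface, was found in 93 of 96 cells. Prg4 stood at 3045, 9470, 7008, 6694, 4054 and 5822 CPM. These levels were above those of annotated osteoblasts in all 6 hashtags, which had a mean of 424 CPM, and below the 68751 CPM of Lining fibroblasts. Clic5, another gene of the Lining fibroblasts, was at 15.6 CPM against 813 CPM there. Whether free Prg4 RNA adds to these levels was not tested. After thinning, 85.4% of annotated chondrocytes and 26.6 to 38% of annotated osteoblasts, Pi16+ and Cd200+ fibroblasts had a UMI. Of 14 genes in the superficial zone and articular list, 13 were above annotated osteoblasts and 10 above all fibroblasts together by the mean. By the same mean 6 were highest in annotated chondrocytes and 8 in a fibroblast annotation.

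The 10 genes lowest against fibroblasts began with Saa3 and Hp, while 14 of 35 genes of the inflammatory and acute-phase list were above fibroblasts by the mean. Saa3 and Hp, the acute-phase proteins serum amyloid A3 and haptoglobin, had means of 12.8 and 36.1 CPM against 1156 and 1121 CPM in all fibroblasts, with log2 ratios of -5.67 and -4.62. The fibroblast level was highest in STA + Il23mc, at 4830 and 4356 CPM, while the healthy hashtags had 252 and 75.4 CPM of Saa3 and 168 and 81.9 CPM of Hp. In the healthy hashtags annotated chondrocytes had 28.6 and 3.5 CPM of Saa3 and 103 and 59.5 CPM of Hp. Cd248, a surface protein of stromal cells, stood at 5.08 against 282 CPM. The chemokines Cxcl5 and Ccl11 stood at 23.6 and 3.71 CPM against 576 and 203 CPM. The other 5 of the 10 were Efemp1, Ctla2a, H19, Pi16 and Postn, and Ctla2a was lower in only 3 of 6 hashtags. The matrix proteases varied. Mmp13, the collagenase of cartilage breakdown, had a mean of 142 CPM against 2153 CPM in annotated osteoblasts and 642 CPM in fibroblasts. Mmp3, stromelysin-1, had 380 CPM against 1287 CPM in fibroblasts, and 191 of its 379 UMIs were in 1 cell. Adamts5, an aggrecanase, stood at 182 to 301 CPM over hashtags and at a mean of 243 CPM, near the 235 CPM of annotated osteoblasts and the 298 CPM of fibroblasts.

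The annotated chondrocytes made up a smaller share of the cells in STA. They were 4.98% of all annotated cells in the healthy hashtag of experiment 1 (exact 95% interval 3.18 to 7.38%) and 8.25% in that of experiment 2 (5.46 to 11.9%). The share was 1.32% in STA of experiment 1, 3.61% in mild STA and 1.61% in severe STA, and 1.52% in STA + Il23mc. All 3 STA shares lay below both healthy ones, and the means were 2.18 ± 1.25% (SD, n = 3) and 6.62 ± 2.32% (SD, n = 2). The two-sided exact permutation test gave p = 0.1, the smallest p that 3 against 2 allows. Whether the groups overlap depends on the denominator. Without the Mmp3+ fibroblasts the shares were 5.09 and 9.09% in healthy and 3.94, 6.63 and 2.61% in STA, which overlap (exact permutation p = 0.4). Of chondrocytes and osteoblasts together they were 42.6 and 55.3% in healthy and 31, 50 and 29.6% in STA, which overlap too (exact permutation p = 0.3). The overlap is between experiments, and the permutation test takes no account of the experiment. Within each experiment every STA share lay below the healthy share for both of these denominators. Fewer of these cells in a joint and more cells of other annotations cannot be told apart from a share.

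**Figure D4:**
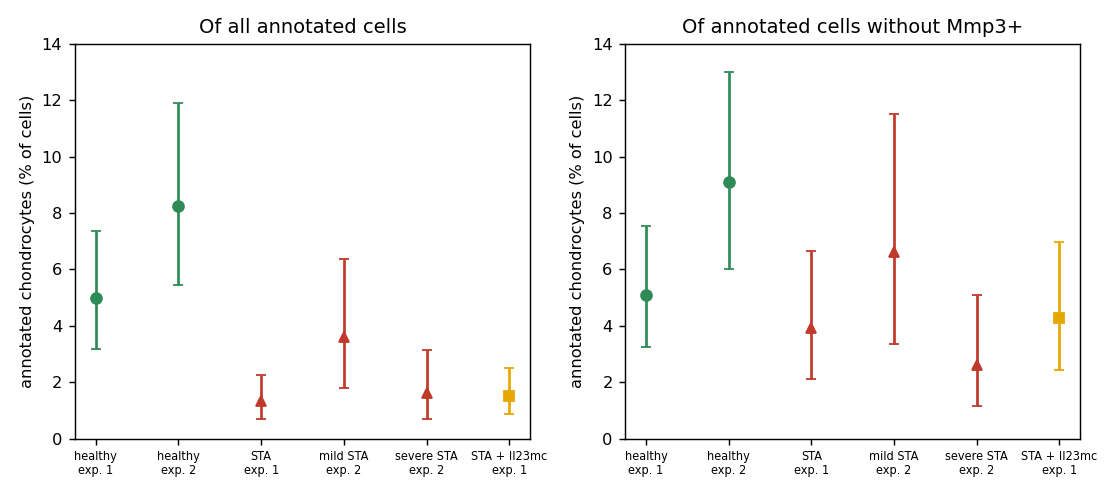
Share of annotated chondrocytes per hashtag in percent, of all annotated cells (left) and of annotated cells without the Mmp3+ fibroblasts (right); bars are exact 95% binomial intervals and cover counting error only. On the left every STA value lies below both healthy values, and on the right mild STA, at 6.63%, lies above healthy in experiment 1. It lies below healthy of its own experiment, at 9.09%.

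Annotated chondrocytes had somewhat fewer detected genes and a weaker hashtag signal than all fibroblasts together. The median number of genes per cell was 2743 on average over the 6 hashtags, 559 below fibroblasts and lower in 6 of 6 (exact sign-flip permutation p = 0.0312, the smallest that 6 hashtags allow, and 0.0781 adjusted over 10 tests). Against Cd200+ fibroblasts alone the order was mixed. Healthy hashtags had medians of 2187 and 2701.5 genes against 2354 and 2729 in Cd200+ cells. The STA hashtags had 3019, 3248 and 2746.5 against 2715, 3115.5 and 2614.5, and STA + Il23mc had 2556 against 2440.5. The hashtag margin, the authors' score of how far the called hashtag stands out, was 0.527 against 0.801 in fibroblasts and 0.929 in annotated osteoblasts, lower in 6 of 6 against each. Both gave an exact permutation p of 0.0312, or 0.0781 adjusted and so missed the threshold of 0.05. Hashtag UMIs per cell were 124 below fibroblasts, lower in 6 of 6, with the same 2 p-values in the exact permutation test. UMIs per cell were 2978 below fibroblasts and lower in 5 of 6, with an adjusted exact permutation p of 0.179. The mitochondrial percentage was 2.62 against 2.61 in fibroblasts. B2m, of the MHC class I genes listed below, was at 319 to 922 CPM in annotated chondrocytes and 558 to 749 CPM in fibroblasts.

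For the change from healthy to STA, counts were summed per hashtag and fitted with edgeR's quasi-likelihood test, with a term for the experiment. Of 3610 genes tested, 2 passed an adjusted p of 0.05, which is 0.0554% of them, and both fell: Col2a1 and Cxcl2. At an unadjusted p under 0.05 there were 250 genes, or 6.93%. Over all tested genes the median log2 change was 0.03. These sums come from 8 to 26 cells per hashtag, so less RNA per cell cannot be told apart from fewer cells of 1 kind within the annotation. With only the cells of a hashtag margin at or above the median of their well, 0 genes passed, and the estimates of Col2a1 and Cxcl2 were -3.69 and -4.23, each with an edgeR adjusted p of 0.999.

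Col2a1 fell in STA by 5.63 on the log2 scale (SE 0.55, edgeR adjusted p = 0.0105). Its counts were 380 and 185 UMIs in the healthy hashtags and 3, 3 and 3 in the STA hashtags, and the groups did not overlap in either experiment. Without the healthy cell of 380 UMIs the estimate was -3.66 with an edgeR adjusted p of 0.458, and without the 3 cells of most UMIs the gene no longer had enough counts to be tested. The cells with 380 and 71 UMIs also held 17 and 69 UMIs of the 3 bone genes. The call thus rests on 3 healthy cells. As a ratio of summed counts, 9 UMIs in STA against 565 in healthy gave 0.0172 (exact interval of the counts 0.00784 to 0.0329), with 0.00816 in experiment 1 and 0.0361 in experiment 2.

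Cxcl2, a chemokine that draws neutrophils (chromosome 5, 90903871 to 90905938), fell by 6.34 on the log2 scale (SE 0.68, edgeR adjusted p = 0.012). It had 40 and 75 UMIs in the healthy hashtags, 0, 1 and 0 in the STA hashtags and 0 in STA + Il23mc. As a ratio of summed counts, STA over healthy was 0.0094 (0.000236 to 0.0534 by the counts). The UMIs lay in 12 cells, and 51 were in 1 healthy cell, without which the edgeR adjusted p was 0.119 at an estimate of -5.48. The 4 cells with most, all healthy, held 51, 25, 17 and 13 UMIs. Without these 4 cells the gene no longer had enough counts to be tested, so this call too rests on few healthy cells. In fibroblasts the levels were 672 and 686 CPM in healthy and 456, 201 and 381 CPM in STA, a log2 change of -0.93 (edgeR adjusted p = 0.0505).

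The fixed lists gave these counts, with no test of a list. Of 7 cartilage collagens tested, 1 fell (Col2a1) and 0 rose, and the median log2 change was -2.96. All STA hashtags lay below both healthy ones for 4 of the 7 (Col2a1, Col9a1, Col9a2 and Col9a3), against 10.2% of all tested genes. The collagen IX chains had log2 changes of -2.96, -4.1 and -4.19, with edgeR adjusted p-values of 0.43, 0.648 and 0.188. Their healthy counts in experiments 1 and 2 were 40 and 4, 21 and 7, and 53 and 21 UMIs, and 68.8 to 83.3% of the UMIs of each were in 1 cell. Since 1 cell held most UMIs of each of the 4 genes, their number says little of the other cells. Of 21 genes in the list of aggrecan network and matrix proteins, 0 passed in either direction, with a median of -0.52. Its 4 most expressed members, Comp, Fmod, Clu and Chad, had log2 changes of -0.30, 0.99, -1.22 and -0.58. Acan had 0.09 (SE 0.72) and Sox9 -0.44 (SE 0.56). These estimates moved with single hashtags: without 1 of them Acan ranged from -0.61 to 0.9, Fmod from -0.08 to 1.32 and Clu from -2.16 to -0.51, and 34 of 63 named genes had estimates on both sides of 0. Of 21 chondrocyte markers tested, 1 fell (Col2a1), 0 rose and the median was -0.58.

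For the 6 tendon or ligament markers, 0 passed in either direction, 5 estimates were above 0, and the median was 1.35. All STA hashtags lay above both healthy ones for 3 of them (Tnmd, Kera and Mkx), against 9.61% of all tested genes. For Mkx this rests on few counts, 2 and 5 UMIs in healthy and 5, 13 and 2 UMIs in STA. Kera had a log2 change of 2.19 (SE 0.41, edgeR adjusted p = 0.188) and Tnmd one of 1.18 (SE 0.36, edgeR adjusted p = 0.468). In fibroblasts all 6 rose by the same fit (median 1.53), which called 2464 of 13249 genes, or 18.6%. Mmp3+ cells were 10 of 408 and 29 of 268 fibroblasts in healthy, and 655 of 943, 139 of 283 and 191 of 470 in STA. In sums over all fibroblasts, this shift cannot be told apart from a change within cells. Scx, the tendon transcription factor scleraxis, had -0.20 in annotated chondrocytes and 3.09 in fibroblasts. Col1a1 stood at 5427 and 7551 CPM in healthy and at 18049, 34172 and 22236 CPM in STA, with no overlap. Its estimate was 1.86 (SE 0.42, edgeR adjusted p = 0.253). It passed with DESeq2 (adjusted p = 0.0316). With only the cells of clearer hashtags it had 1.79 (edgeR adjusted p = 0.999). In STA of experiment 1 a single cell held 1475 of 3057 Col1a1 UMIs, and in mild STA a single cell held 2060 of 5661.

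Of 23 tested genes of the secretory pathway and collagen processing, 0 passed and 18 estimates were above 0, against 1895 of all 3610. In STA 9 lay wholly above healthy (39.1%) and 2 wholly below (8.7%), against 9.61 and 10.2% of all tested genes. Among the 4 most expressed members, Serpinh1, the collagen chaperone HSP47, had 1.33 (SE 0.39, edgeR adjusted p = 0.446); Hspa5 and Pdia3 of the endoplasmic reticulum had 0.37 and 0.48, and Lox, which crosslinks collagen, 0.64. In the inflammatory and acute-phase list 1 of 29 fell (Cxcl2) and 0 rose, with a median of 0.31. Ptgs2, the inducible cyclooxygenase, had 3.26 (SE 0.68, edgeR adjusted p = 0.188) with all STA hashtags above healthy. It was the 1 gene of the list that lay wholly above (3.45%), and 4 lay wholly below (13.8%), against 9.61 and 10.2% of all tested genes. In matrix catabolism 0 of 15 passed: Mmp3 had 1.82 (SE 0.76; -0.09 to 3.06 without 1 hashtag), Mmp13 0.63 (SE 0.64; -0.58 to 1.2), Adamts5 0.41 (SE 0.35), Timp1 0.59, Timp2 0.05, Ctsl -0.31 and Mmp2 1.04. The lists of chondrocyte transcription factors (0 of 11, median -0.44), superficial zone genes (0 of 11, -0.43), growth plate genes (0 of 7, 0.26) and glycosaminoglycan synthesis (0 of 8, -0.09) held no call.

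The other lists held no call either. In growth factor signalling (0 of 24, median -0.20), Igf1, the insulin-like growth factor, had 1.61 (SE 0.40, edgeR adjusted p = 0.297), and Igfbp5, Ccn2 and Fgfr1 had -0.20, 0.17 and 0.63. In metal and oxidative stress (0 of 13, 0.21) the metallothioneins Mt1 and Mt2 had -0.35 and -0.20. In immediate early genes (0 of 19, -0.16), which cell release from tissue can raise, Klf4, Fos and Fosb had -0.45, 0.57 and -0.28. In glycolysis and hypoxia (0 of 14, -0.31) Gapdh and Pkm had -0.34 and 0.06. Interferon and MHC class I genes (0 of 10, 0.13), cell cycle genes (0 of 5, 0.18) and mechanosensing genes (0 of 8, -0.33) closed the lists. Iigp1 of the interferon list and Mt3 of the metal list had 0 UMIs in healthy and STA. Their 16 and 19 UMIs were all in STA + Il23mc, so the comparison of STA with healthy could not call them. Cdkn1a, the cell cycle inhibitor p21, had -1.69 (SE 0.48, edgeR adjusted p = 0.43).

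The STA change in annotated chondrocytes was then set against that in fibroblasts of the same hashtags in 1 edgeR model. Of 3610 genes 2 passed, again 0.0554%, and 211 genes, or 5.84%, had an unadjusted p under 0.05. The first was Hp (chromosome 8, 109575128 to 109579172), whose changes differed by -6.75 (SE 0.60, edgeR adjusted p = 0.009). In fibroblasts Hp stood at 168 and 81.9 CPM in healthy and at 1106, 759 and 259 CPM in STA, a rise of 2.69. In annotated chondrocytes it stood at 103 and 59.5 CPM in healthy and at 5.9, 6.04 and 0 CPM in STA, from 18, 17, 1, 1 and 0 UMIs, with an estimate of -3.80 (edgeR adjusted p = 0.255). Without STA of experiment 1 or healthy of experiment 2 the edgeR adjusted p of the difference was 0.154 or 0.306, and without healthy of experiment 1 the gene had no value. The second was Col2a1, with a difference of -6.40 (SE 0.72, edgeR adjusted p = 0.0287), whose fibroblast change was 0.51. Without healthy or STA of experiment 1 its edgeR adjusted p was 0.304 or 0.154. Acan had a difference of -2.60 (edgeR adjusted p = 0.545), with a rise of 2.58 in fibroblasts. The fibroblast changes come from sums whose Mmp3+ part grew in STA, so shifts between annotations and changes within cells cannot be told apart.

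**Figure D5:**
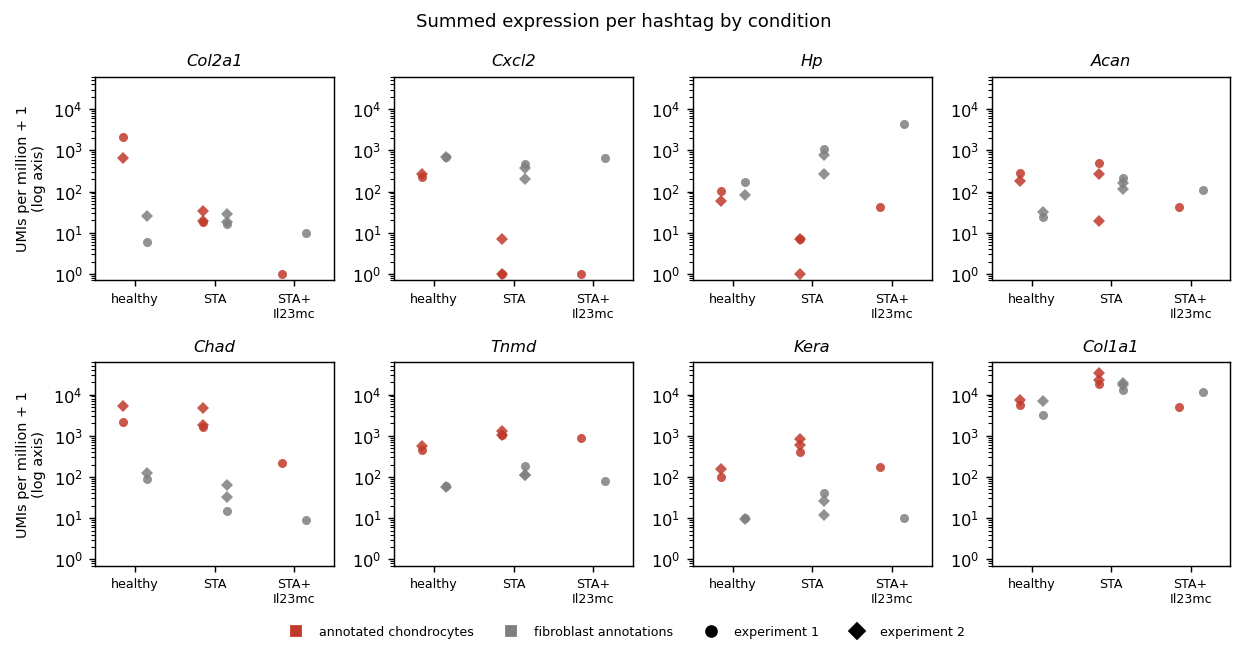
Level of 8 genes per hashtag as CPM plus 1 on a log axis, by condition, in annotated chondrocytes and in all fibroblast annotations; the shape gives the experiment. Col2a1, Cxcl2 and Hp of annotated chondrocytes lie lower in all 3 STA hashtags than in both healthy ones, while Hp of fibroblasts lies higher.

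STA + Il23mc and STA of experiment 1 were 1 hashtag each, of 15 and 13 cells, so there is no test, and the intervals cover counting error only. Angptl7 was 4.08 times as high with Il23mc (interval 3.25 to 5.17) and Clu 2.52 times (1.94 to 3.29). Chad was at 0.132 of the STA level (0.0877 to 0.191), Cilp2 at 0.161 (0.0742 to 0.313), Acan at 0.0852 (0.0304 to 0.193) and Col1a1 at 0.28 (0.258 to 0.304). Tnmd was at 0.862 (0.681 to 1.09) and Sox9 at 0.863 (0.538 to 1.37). Single cells weighed on these ratios. Without the cell with most UMIs of the gene, a setting chosen after seeing the data, Chad was at 0.441 (208 of 281 STA UMIs of Chad were in that cell), Acan at 0.195, Cilp2 at 0.266, Col1a1 at 0.471, Tnmd at 0.616 and Sox9 at 1.25, while Angptl7 was 3.14 times and Clu 1.87 times as high.

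Severe and mild STA of experiment 2, with 8 and 11 cells, also were 1 hashtag each. The Y-linked Ddx3y was at 41.7 CPM in fibroblasts of severe STA and at 0.17 CPM in those of mild STA. Severity therefore cannot be told apart from sex in these ratios. Acan was 14.6 times as high in severe STA (4.42 to 75.5), from 24 against 3 UMIs, Sox9 5.67 times (3.61 to 9.19), Clu 4.81 times (4.2 to 5.51) and Chad 2.52 times (2.17 to 2.92). Fmod was at 0.169 of the mild level (0.142 to 0.199) and Tnmd at 0.805 (0.626 to 1.03). Cytl1 was at 0.548 of the mild level (0.391 to 0.756), from 50 against 166 UMIs, and all 166 were in 1 cell, without which mild STA was at 0. Without the cell with most UMIs of the gene, Acan was 10.8 times as high, Sox9 4.29 times, Clu 2.22 times and Chad 1.72 times, and Fmod and Tnmd were at 0.189 and 0.398 of the mild level.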

How the data were processed

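The authors deposited raw UMI counts per gene and barcode as 10x matrices. Their headers name Cell Ranger 6.1.2, whereas the version in the submitters' processing notes is 6.0.6, with mm10 as the build. In the authors' deposited cell table, 3 columns are counts (UMIs, genes, hashtag UMIs), 1 is a mitochondrial fraction, shown here in percent, and 1 is a hashtag margin score, beside hashtag calls and annotations; how these were made is not given in the sources used here. No doublet caller was run here, and the wells were loaded above the usual number. Of 3551 annotated cells in the fibroblast wells, 3548 matched a barcode. UMIs in the table and the matrix were equal for 319 of these and higher in the matrix for 3229, by a median over all of 0.0241% and at most 4.14%. Counts were summed per annotation and hashtag, 91022 to 285647 UMIs in annotated chondrocytes. They were tested with edgeR 4.0.16 (TMM, filterByExpr, quasi-likelihood, Benjamini-Hochberg threshold 0.05, in R 4.3.3) over all genes that passed the filter. With STA + Il23mc as a group of 1 hashtag, a gene could pass the filter through 1 hashtag alone. DESeq2 1.42.0 was an alternative. The fits were tested on simulated data: for STA in annotated chondrocytes, with 200 of 3610 genes changed, 28% of 4-fold and 92.5% of 16-fold changes were recovered, with 1 and 10 false calls. The changed genes were drawn only from those with higher summed counts. Effects of experiment or Il23mc and counts packed into single cells were not simulated, so recovery over all tested genes may be lower. Exact permutation tests over hashtags and exact intervals used scipy 1.17.1. Genes were named by rank of the log2 ratio of mean CPM plus 10 (15 above fibroblasts, 10 above osteoblasts, 10 below fibroblasts, at least 100 CPM in the higher group), by passing the threshold, or as the 4 most expressed members of a list; sex-linked genes were left out, read as Y-linked genes and Xist, so that X-linked Tnmd stayed. Other genes (Prelp, Hapln1, Matn3, the collagen IX and XI genes, Clic5 and further list members) were named after their values were seen. Positions are from GENCODE M21. Alternatives left out hashtags or cells, or changed the tool, filter, averaging or denominator; ratios of 1 hashtag to another were also taken without 1 cell. The members, lists and rules were chosen with earlier results of these data known.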

Additional observations from a re-analysis of the deposited data

Results flagged for a closer look

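Col2a1 and Hp had STA changes in annotated chondrocytes that differed from those in fibroblasts of the same hashtags by the interaction term of the edgeR model. The differences were -6.4 and -6.75 on the log2 scale, with adjusted p-values of 0.0287 and 0.009. The Col2a1 difference rests on 3 healthy cells, and without them the gene was not tested. In annotated chondrocytes the Hp difference rests on 37 UMIs in 15 cells, and 16 of the UMIs were in 1 healthy cell. In fibroblasts a shift towards Mmp3+ cells in STA cannot be told apart from a change within cells.

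The matrices of the 2 wells hold 7180 barcodes outside the authors' cell table, and 5297 of these had at least 1500 UMIs, at least 800 genes and at most 10% mitochondrial UMIs. Among them, 236 had at least 10 UMIs of Chad, against 47 of the 96 annotated chondrocytes, and 66 had at least 10 UMIs of Col2a1. These barcodes carry no annotation or hashtag call in the table and went into no comparison; how many hold 2 cells was not tested.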

How the results depend on the processing

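The count of 2 genes called in annotated chondrocytes for STA moved with most choices. It was 4 with DESeq2, 114 with every gene that had at least 1 count, 2 without the experiment term (no replicate block) and with cells of at least 2000 UMIs, and 0 with only the cells of clearer hashtags. Leaving out an STA hashtag, which keeps 2 healthy and 2 STA in the fit, gave 30 to 77, Col2a1 and Cxcl2 among them each time. Without STA of experiment 1, however, that well holds no STA hashtag. With the experiment term, the STA change then comes from experiment 2 alone, with 1 healthy hashtag. Its Col2a1 estimate was -4.72, against -4.73 without healthy of experiment 1, so these 2 settings are not separate checks. The same holds for these 2 settings in the difference from fibroblasts. Without a healthy hashtag 1 is left in that group, and this lone hashtag is assumed to vary like the others. Without healthy of experiment 1 or 2 the estimates were -4.73 and -6.83 for Col2a1 and -5.83 and -8.04 for Cxcl2. In alternatives chosen after seeing the data, it was 1 without the cell or the 3 cells with most Col2a1, 1 without the cell or the 4 cells with most Cxcl2, and 1 without the 10 cells with bone gene UMIs. The 2 genes called for a difference from fibroblasts became 79 with every gene of at least 1 count, 0 to 93 without 1 hashtag, and, chosen after seeing the data, 1 without the 3 Col2a1 cells and 4 without the 10 cells with bone gene UMIs. The 0 came without healthy or STA of experiment 1. For STA against healthy, no paired analysis was possible because the labels give no pairs of animals across these groups, and the experiment term stands for the well. The per-cell measures were paired within hashtags. Alpl, at -0.05, went to 4.95 and 4.96 without healthy or STA of experiment 1 and to -6.18 without healthy of experiment 2.

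Of the per-cell measures, with means over cells in place of medians the differences from fibroblasts and from osteoblasts were -4426 and -6496 UMIs, -659 and -791 genes, -353 and -312 hashtag UMIs, and -0.307 and -0.359 in margin, and all 8 passed the threshold. The mitochondrial difference from fibroblasts ranged from -0.212 to 0.129 without 1 hashtag. The share difference of -4.44 percentage points ranged from -6.08 to -2.8. With 1 sum over all cells, the log2 ratios to fibroblasts of Lcn2 and Tnxb, 0.79 and -0.27, became -0.21 and 0.57. The causes were not tested. Depth limits the STA fit to 3610 genes, and 2 residual degrees of freedom per gene carry it.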
